A study of Mus musculus with 66 samples.

Results

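The genes described here are 10 members of the machinery that carries a cell through the G1 phase of its cycle: the cyclins Ccnd1, Ccnd2 and Ccne1, the kinases Cdk4 and Cdk6, the kinase inhibitors Cdkn1a, Cdkn1b, Cdkn2a and Cdkn2b, and the retinoblastoma gene Rb1. They were chosen by name, with earlier results of these data known, and all 10 were found among the 39179 genes of the count tables. The study compared RNA sequencing library kits on 4 RNA samples. BC57, a mouse bladder cancer cell line grown in DMEM with fetal bovine serum, and normal urothelium taken from 9 mice were each kept in 2 ways, frozen in liquid nitrogen (FF) or fixed in formalin and embedded in wax (FFPE). The BC57 pellet was 1 harvest divided into 2 parts, and how the urothelium of the mice was combined is not given in the sources used here. No treatment, genotype, mouse strain or age enters the labels used here.

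Libraries were made in triplicate with the Ovation SoLo kit from 2 ng, 250 pg or 50 pg of RNA, and with the SMARTer Stranded Pico kit from 2 ng or 250 pg. Both kits read total RNA, and the Ovation protocol used random priming and removed ribosomal sequences. The reference libraries were poly(A)-selected from 1 µg of frozen RNA. This gave 22 groups of 3 libraries. Since the 3 libraries of a group are repeats of 1 RNA sample, every p-value measures the spread between repeat libraries only, which may be technical. FFPE and frozen RNA were also extracted with different kits, so fixation and extraction cannot be told apart. BC57 is a cell line and the urothelium a dissected tissue, so culture, cell type and malignancy differ together between them.

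In G1, D-type cyclins bind Cdk4 or Cdk6 and the complex phosphorylates the retinoblastoma protein, which otherwise holds E2F transcription factors in check. Cyclin E, acting with Cdk2, continues the phosphorylation, and the released E2F factors turn on genes for DNA replication. The INK4 proteins encoded by Cdkn2a and Cdkn2b bind Cdk4 and Cdk6, whereas p21 (Cdkn1a) and p27 (Cdkn1b) also act on Cdk2 complexes. Loss of RB1 or of CDKN2A and gain of CCND1 are well known in human bladder cancer, and normal urothelium renews slowly.

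Library totals spanned 928722 to 4706030 counts (Ovation), 651879 to 7152648 (SMARTer) and 18499591 to 36187226 (poly(A)). Levels are given as CPM, counts scaled to a common library size. The libraries numbered 3 stood apart in the SMARTer FFPE groups of both samples, most of all in urothelium. The log2(CPM + 1) values of urothelium library 3 had Pearson correlations of 0.361 to 0.385 (250 pg) and 0.571 to 0.579 (2 ng) with the other libraries of its group. For BC57 library 3 they were 0.797 to 0.808 and 0.914 to 0.915, where libraries 1 and 2 correlated with each other at 0.898 and 0.978. Results that rest on these libraries are also given without the SMARTer FFPE libraries numbered 3 of either sample. The labelled tissue carried its defining markers: in the poly(A) libraries the 9 urothelial markers summed to 9186 to 10190 CPM in urothelium and to 741 to 771 in BC57. Upk3a, 1 of these 9 markers and a uroplakin of the urothelial surface, was at 1593 CPM in urothelium and 0.0469 CPM in BC57. The 741 to 771 CPM summed in BC57 therefore came from other markers of the list, so the near-0 Upk3a does not stand for all 9. The summed epithelial markers were 6252 to 6599 CPM in BC57 against 3784 to 4020 in urothelium. The tissue also held RNA of other cells. Fibroblast markers summed to 9041 to 9856 CPM in urothelium against 6.34 to 8.73 in BC57, smooth muscle markers to 201 to 220 against 10.3 to 12.5, endothelial markers to 225 to 231 against 0.745 to 1.02, and leukocyte markers to 327 to 349 against 23.6 to 23.9. Their part in the differences described next was not tested, and in bulk RNA fewer cells of a type and less RNA per cell cannot be told apart.

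The largest contrast among the 10 genes was at the Cdkn2a–Cdkn2b locus. Its promoter sequences are shown here because these neighbouring inhibitors differed in opposite directions in the poly(A) libraries. Under the other library conditions the direction of Cdkn2b was less even, as given below. Cdkn2a (ENSMUSG00000044303) lies on the minus strand of chromosome 4 at 89274471 to 89294653 (GRCm38), and Cdkn2b (ENSMUSG00000073802) lies just upstream at 89306299 to 89311039 on the same strand. Cdkn2a makes 2 proteins in different reading frames from separate first exons: p19Arf, which acts on the p53 pathway, from the upstream start, and p16Ink4a from the downstream one. A count per gene does not separate them. RefSeq promoter windows (build GRCm38.p6, minus strand, written 5′ to 3′, ending before the first annotated exon) were, for the upstream Cdkn2a start chr4:89294654-89294869, for the downstream start chr4:89282193-89282442 and for Cdkn2b chr4:89311040-89311282. Capitals mark an E2F-type motif.
Cdkn2a upstream start: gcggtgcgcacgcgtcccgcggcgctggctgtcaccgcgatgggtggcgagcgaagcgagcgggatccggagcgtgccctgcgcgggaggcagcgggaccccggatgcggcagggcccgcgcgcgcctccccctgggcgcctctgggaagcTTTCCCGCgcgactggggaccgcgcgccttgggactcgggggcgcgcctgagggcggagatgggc
Cdkn2a downstream start: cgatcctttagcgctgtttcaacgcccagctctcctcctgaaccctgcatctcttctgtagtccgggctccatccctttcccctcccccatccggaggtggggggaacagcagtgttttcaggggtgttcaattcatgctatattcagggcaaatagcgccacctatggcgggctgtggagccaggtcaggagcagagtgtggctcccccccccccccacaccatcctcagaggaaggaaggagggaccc
Cdkn2b: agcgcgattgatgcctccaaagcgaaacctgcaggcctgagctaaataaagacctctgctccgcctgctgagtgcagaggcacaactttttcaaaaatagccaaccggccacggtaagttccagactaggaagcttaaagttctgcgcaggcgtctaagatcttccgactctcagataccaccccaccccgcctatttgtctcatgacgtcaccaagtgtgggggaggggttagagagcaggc
The 4 E2F-type motifs searched on both strands were TTTGGCGC, TTTCGCGC, TTTCCCGC and TTTGCCGC. The table held windows of 250 bases for 7 of the 10 genes, 9 windows in all, and 1 of them had a match. That match, TTTCCCGC, lay in the upstream Cdkn2a window, starting at position -99 counted from the RefSeq start, which borders the full window at 89294620. The printed stretch is shorter, because it stops where the GENCODE exon begins. Such a motif was held by 1.86% of all 32851 promoter windows. The full window was also rich in G and C (78.4%, against 60% in the downstream window, 53.6% at Cdkn2b and a median of 52.4% over all windows). These letters describe the windows and say nothing of which factor was bound.

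In the poly(A) libraries, the study's reference, BC57 cells had far more RNA of Cdkn2a, Ccne1, Ccnd1, Cdk4 and Cdk6 than urothelium and less of Rb1. Cdkn1a was moderately higher, Cdkn1b and Cdkn2b were moderately lower, and Ccnd2 did not pass the test. Of the 10 genes, 9 differed (6 higher, 3 lower; edgeR's quasi-likelihood test, Benjamini-Hochberg adjusted p under 0.05 over all genes). That count is at the background, since 91.3% of the 17934 genes tested differed in this comparison, 42.8% higher and 48.5% lower. The size of each difference is therefore given below. The median signed log2 fold change of the 10 genes was 1.18, and that of all genes was -0.12. Signed medians pool genes that go both ways. They do not show whether the 10 genes changed more than other genes.

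Ccnd1, cyclin D1 (chromosome 7, 144929931 to 144939925, minus strand), had 1123, 1117 and 1117 CPM in BC57 and 151, 158 and 159 CPM in urothelium. All BC57 libraries were above all urothelium libraries, and the difference was 6.90-fold (log2 fold change 2.79 ± 0.04 SE, adjusted p = 2.49e-23, edgeR). The share of all genes whose libraries did not overlap was not counted. Statements on overlap, here and below, are therefore descriptions only. Ccnd2, cyclin D2 (chromosome 6, 127125162 to 127152193, minus strand), had 251, 253 and 245 CPM in BC57 and 226, 228 and 233 CPM in urothelium. The libraries did not overlap, but the difference of 0.07 ± 0.04 missed the threshold (adjusted p = 0.0881, edgeR). It passed with DESeq2 (0.08, adjusted p = 0.0444), with another scaling (0.08, adjusted p = 0.0349), without the low-count filter (0.12) and without BC57 library 2 (0.12, adjusted p = 0.0124). The D cyclins thus stood in different proportions in the 2 samples. Per kilobase of exon, the level of Ccnd1 was 8.96 ± 0.144 times that of Ccnd2 in BC57 (SD, n = 3 libraries) and 1.36 ± 0.0206 times in urothelium.

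Ccne1, cyclin E1 (chromosome 7, 38097984 to 38107534, minus strand), had 48.7, 47.9 and 47.6 CPM in BC57 and 0.599, 0.565 and 0.511 CPM in urothelium, where it rested on 12, 15 and 17 counts. It was 83.2-fold higher in BC57 (log2 fold change 6.38 ± 0.10, adjusted p = 9.33e-23, edgeR). Urothelium was thus close to lacking this mRNA. Cdk4 (chromosome 10, 127063534 to 127067920, plus strand) had 507, 490 and 502 CPM in BC57 and 131, 140 and 143 CPM in urothelium, a 3.48-fold difference (1.80 ± 0.04, adjusted p = 5.26e-20, edgeR). Its partner-sharing kinase Cdk6 (chromosome 5, 3341485 to 3531008, plus strand) had 62.2, 60.3 and 61.2 CPM against 17.7, 15.4 and 18.7 CPM, a 3.40-fold difference (1.77 ± 0.06, adjusted p = 4.33e-17, edgeR). Both kinases were higher in every BC57 library than in any urothelium library and by a similar factor. Rb1, the gene of the retinoblastoma protein that these kinases act on (chromosome 14, 73183673 to 73325822, minus strand), went the other way. It had 15.4, 17.4 and 16.6 CPM in BC57 and 47.3, 43.1 and 41.4 CPM in urothelium, with a log2 fold change of -1.48 ± 0.06 (adjusted p = 3.53e-15, edgeR).

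Among the inhibitors, Cdkn2a had 190, 180 and 179 CPM in BC57 and 0.898, 0.904 and 0.842 CPM in urothelium, on 18, 24 and 28 counts. Its log2 fold change of 7.64 ± 0.08 (200-fold, adjusted p = 1.53e-25, edgeR) was the widest of the 10. Cdkn2b, which encodes the INK4 protein p15, had 18.1, 17.7 and 17.1 CPM in BC57 and 25.4, 26.6 and 27.8 CPM in urothelium (-0.66 ± 0.06, adjusted p = 1.26e-09, edgeR). The direction was opposite to that of the neighbouring Cdkn2a. Cdkn1a, the p53 target gene for p21 (chromosome 17, 29090976 to 29100727, plus strand), had 102, 99.7 and 101 CPM in BC57 and 57.4, 67.2 and 67.5 CPM in urothelium (0.59 ± 0.05, adjusted p = 6.42e-10, edgeR). Cdkn1b, the gene for p27 (chromosome 6, 134920401 to 134925513, plus strand), had 72.8, 74.3 and 72.9 CPM against 123, 104 and 100 CPM (-0.62 ± 0.06, adjusted p = 2.76e-09, edgeR). The BC57 and urothelium libraries of these 4 inhibitors did not overlap, in a comparison where 91.3% of all genes were called.

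**Figure D1:**
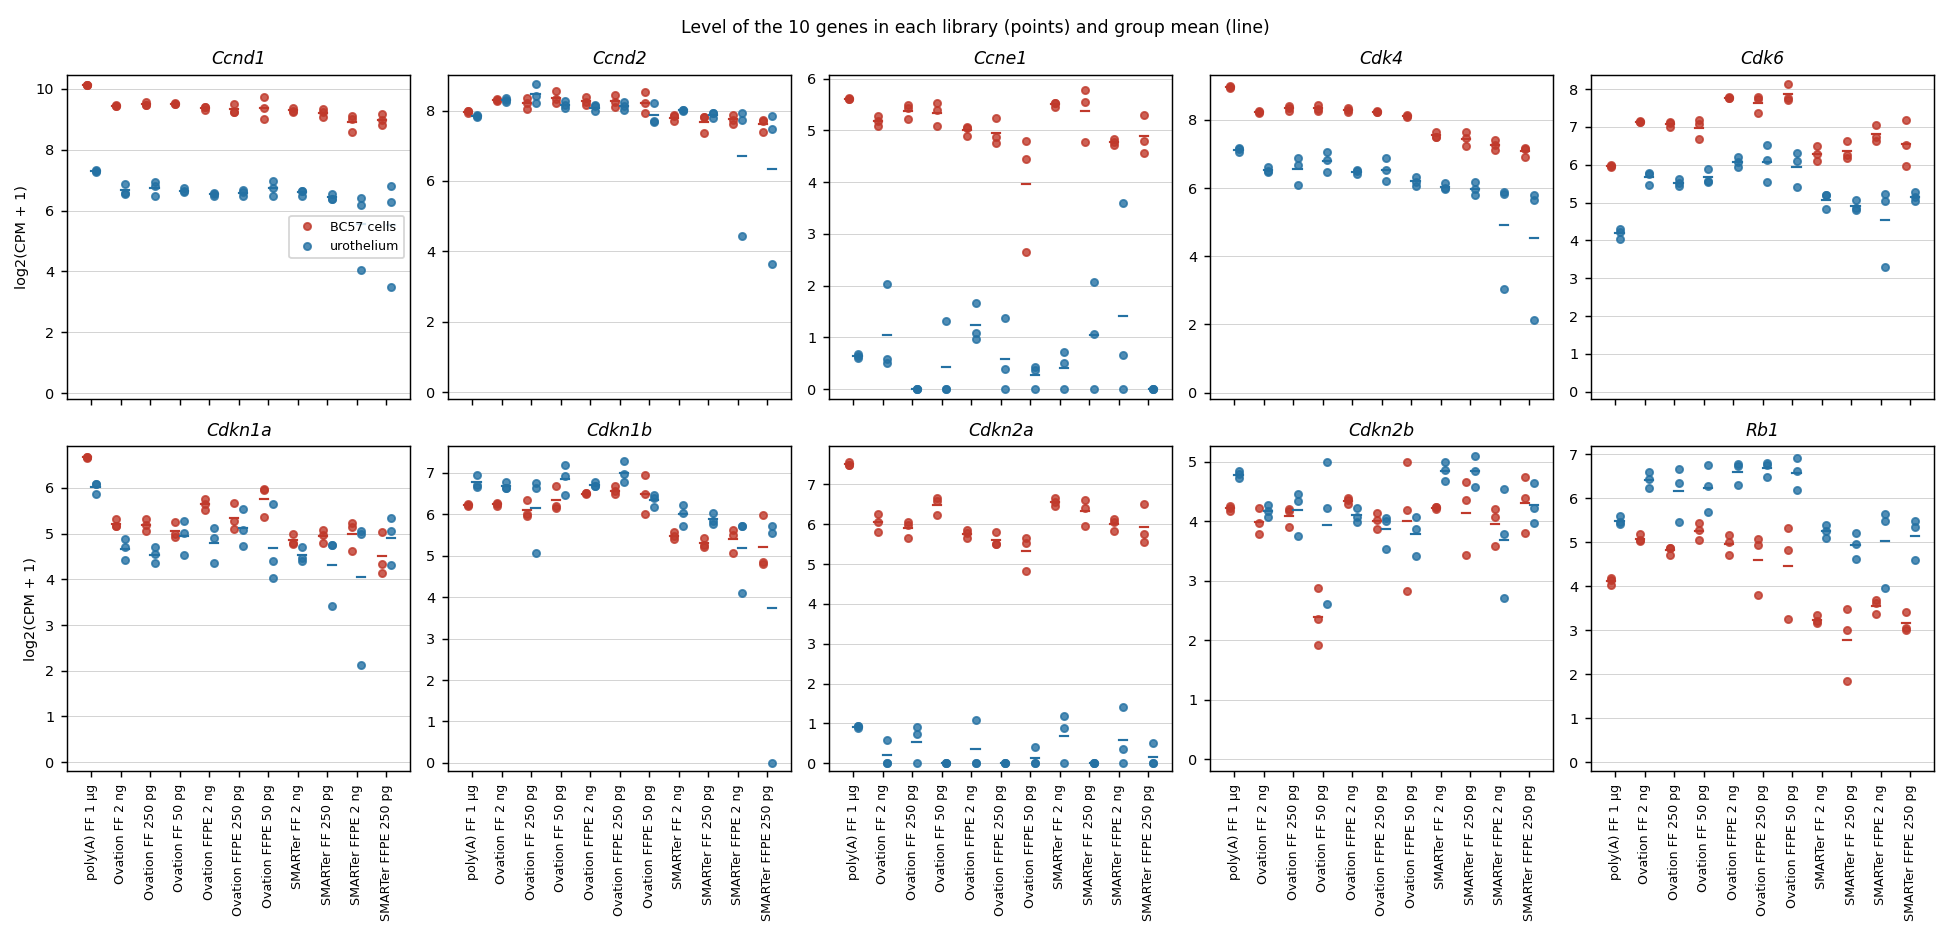
Level of each of the 10 genes, as log2(CPM + 1) scaled within a kit, in every library of BC57 (red) and urothelium (blue) by kit, preservation and RNA input; points are libraries and lines are group means. Ccnd1, Cdkn2a, Ccne1 and Cdk4 were higher in BC57 in all 11 conditions, Ccnd2 overlapped in all but 1, and library 3 of the SMARTer FFPE urothelium groups lay far below its 2 fellows for Ccnd2 and Cdk4.

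Scaled by exon length, the order of levels within each sample could be compared between genes. In BC57 the poly(A) level was highest for Ccnd1, at 238 ± 0.784 CPM per kilobase (SD, n = 3), followed by Cdkn2a (156 ± 5.18) and Cdk4 (154 ± 2.74), which did not differ beyond their spread. Cdkn1a (28.4 ± 0.275), Ccnd2 (26.5 ± 0.446), Ccne1 (18 ± 0.211), Cdkn1b (16.1 ± 0.187) and Cdkn2b (12.7 ± 0.386) came next, and Cdk6 (4.38 ± 0.0687) and Rb1 (2.74 ± 0.166) were lowest. In urothelium Cdk4 led with 42.4 ± 1.85 CPM per kilobase, followed by Ccnd1 (33.1 ± 0.842), Ccnd2 (24.3 ± 0.372), Cdkn1b (23.9 ± 2.67), Cdkn2b (19.1 ± 0.890) and Cdkn1a (18 ± 1.62). Neither Ccnd2 and Cdkn1b nor Cdkn2b and Cdkn1a were separable. Rb1 (7.30 ± 0.508), Cdk6 (1.23 ± 0.121), Cdkn2a (0.752 ± 0.0291) and Ccne1 (0.210 ± 0.0166) closed the order. The order depends on the length used: with the length of the longest transcript in place of all exons, 16 of the 20 levels moved by more than their spread.

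The rest of the G1/S and RB pathway was read from a list of 26 genes. This list and those below were chosen with earlier results of these data known, so their counts and medians are descriptions. In the poly(A) libraries 19 of the 26 were higher in BC57, 4 were lower and 3 did not pass the test. Beside them, 42.8% of all genes were called higher and 48.5% lower, so being called is not particular to the list. The median log2 fold change of the list was 1.51. The E2F transcription factors E2f7 (5.44), E2f8 (5.22) and E2f1 (4.00) were among the higher ones, E2f1 having 57.7 CPM in BC57 and 3.61 CPM in urothelium. So were cyclin A2 (Ccna2, 4.74), the CDK-associated subunit Cks1b (4.86), the second E-type cyclin Ccne2 (2.06), the third D-type cyclin Ccnd3 (1.35) and Cdk2 (1.57). The remaining INK4 inhibitors Cdkn2c (3.02) and Cdkn2d (2.33) were higher as well. The pocket proteins related to Rb1 split, with Rbl1 higher (1.46) and Rbl2 lower (-1.09). Tfdp2 (-2.16), an E2F partner, Fbxw7 (-0.96), the ubiquitin ligase subunit that marks cyclin E for destruction, and Cdc25a (-0.18) were the other genes that were lower. Cdk7 (0.08), the p57 gene Cdkn1c (0.05) and E2f5 (-0.11) were not called.

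All 15 genes of a list of E2F targets and S-phase genes were higher in BC57 (beside 42.8% of all genes), with a median log2 fold change of 3.93. Rrm2, a ribonucleotide reductase subunit, differed by 6.07, the replication helicase genes Mcm5 and Mcm2 by 5.44 and 3.93, and the thymidylate synthase gene Tyms by 1.90. All 6 proliferation genes were higher too (median 6.27, beside the same 42.8%), including Ccnb1 (6.81) and Mki67 (5.08). Of 10 known regulators of the members, 4 were higher (Myc 3.10, Ezh2 1.98, Trp53 1.95 and Bmi1 1.22) and 5 lower (Cbx7 -1.75, Foxo3 -1.52, Klf4 -1.26, Tgfb1 -0.44 and Mdm2 -0.25), whereas Foxo1 (0.10) was not called. The regulators' shares and median (-0.07) lay near those of all genes, of which 42.8% were called higher and 48.5% lower. Ezh2, Bmi1 and Cbx7 encode Polycomb proteins, a group known for repressing the Cdkn2a locus, and they did not share a direction here. Beside the locus, Mtap was higher in BC57 (2.16; 201 against 45 CPM), Klhl9 was lower (-0.50) and Elavl2 was at least 33.9-fold lower, while Dmrta1 had too few counts to test.

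**Figure D2:**
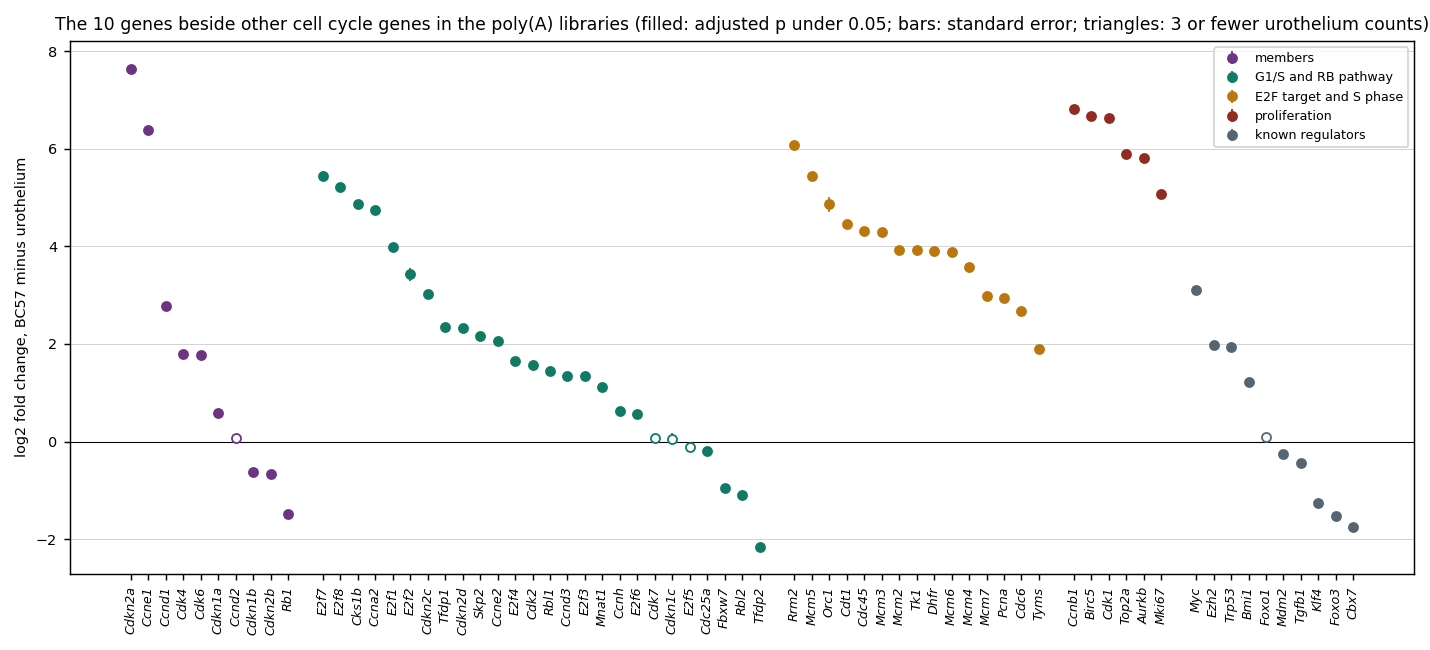
Log2 fold change, BC57 minus urothelium, in the poly(A) libraries for the 10 genes and the lists of pathway, E2F target, proliferation and regulator genes, 1 point per gene, bars for the standard error and filled points for an adjusted p under 0.05. All 15 E2F target and all 6 proliferation genes lie above 0, and the 10 genes spread from Rb1 at -1.48 to Cdkn2a at 7.64.

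The difference between BC57 and urothelium was then measured in 10 further conditions, which reuse the same 4 RNA samples and are not independent of one another. With Ovation on frozen RNA, 8 of the 10 genes differed at 2 ng (beside 79.1% of all genes), 6 at 250 pg (48%) and 7 at 50 pg (45.2%). With Ovation on FFPE RNA the counts were 8 (77.0%), 7 (52.2%) and 6 (33.5%). With SMARTer they were 9 at 2 ng (77.5%) and 6 at 250 pg (51.4%) on frozen RNA, and 5 at 2 ng (30%) and 3 at 250 pg (9.38%) on FFPE RNA. Over the 11 conditions 74 of 110 tests were called, and 61 of these 74 calls held under every alternative setting tried. The lowest counts, for the 10 genes as for all genes, were in the SMARTer FFPE libraries.

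Ccnd1 was higher in BC57 in all 11 conditions, with log2 fold changes between 2.55 and 3.01. With 2 ng of frozen RNA it had 695, 687 and 707 CPM in BC57 against 92.4, 95.3 and 115 CPM in urothelium by Ovation, and 605, 617 and 665 against 99.4, 100.2 and 89.1 CPM by SMARTer. BC57 and urothelium libraries were apart in all 11, and the call at SMARTer FFPE 250 pg was lost when any library other than urothelium library 3 was left out. Cdk4 was called in 10 of 11 (1.46 to 1.88), Cdk6 in 10 of 11 (1.07 to 2.00) and Rb1 in 10 of 11, always lower in BC57 (-2.49 to -1.15). For Rb1 the Ovation 2 ng libraries had 31.5, 32.1 and 35.3 CPM in BC57 against 86.2, 74.2 and 95.7 CPM in urothelium. The condition in which these 3 genes were not called was SMARTer FFPE 250 pg, where they were called without the libraries numbered 3 (Cdk4 1.32, adjusted p = 0.0316; Cdk6 1.59, adjusted p = 0.0387; Rb1 -2.42, adjusted p = 0.0475; edgeR). Without those libraries 6 of the 10 genes were called there in place of 3, and 6 in place of 5 at 2 ng. At 2 ng of FFPE RNA with SMARTer, Cdk4 had 57.7, 55.9 and 7.24 CPM in the urothelium libraries, and the calls of Cdk4 and Rb1 were lost when BC57 library 1 or 2 or urothelium library 1 or 2 was left out. At 50 pg of frozen RNA with Ovation, the call of Rb1 was lost without urothelium library 1 (-0.84, adjusted p = 0.0726, edgeR).

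Cdkn2a was called higher in all 11 conditions. Its libraries never overlapped, a trait whose share over all genes was not counted. Outside the poly(A) libraries it had 27.5 to 101 CPM in BC57. In urothelium it was close to absent at these depths: the 3 libraries held 1, 0 and 0 counts with Ovation on 2 ng of frozen RNA and 4, 6 and 0 with SMARTer. Where all 3 urothelium libraries had no count, BC57 was at least 260-fold higher (Ovation frozen 50 pg), at least 151-fold (Ovation FFPE 250 pg) and at least 406-fold (SMARTer frozen 250 pg), taking 3 counts in the whole urothelium group as the floor. With a single count in the group, the ratio in the Ovation frozen 2 ng libraries was 406 with a 95% counting interval of 72.5 to 16066, which covers counting error only. In the poly(A) libraries, by contrast, Cdkn2a was counted in each urothelium library, so that low depth limits what the other kits could show. The call at SMARTer FFPE 250 pg was lost without BC57 library 2 (adjusted p = 0.0708, edgeR).

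Ccne1 was called higher in 10 of 11 conditions. In BC57 it had 33.1, 35.1 and 37.8 CPM with Ovation at 2 ng on frozen RNA, against 3.06, 0.502 and 0.425 CPM in urothelium on 6, 1 and 1 counts. With no count in the 3 urothelium libraries, it was at least 126-fold higher in BC57 in the Ovation frozen 250 pg libraries and at least 61.8-fold in the SMARTer FFPE 250 pg libraries. The exception was SMARTer FFPE 2 ng, where urothelium held 2, 0 and 20 counts and the log2 fold change was 2.17 ± 1.44 (adjusted p = 0.283, edgeR). Library 3 held the 20 counts, and without the libraries numbered 3 the value was 6.47 (adjusted p = 1.47e-07, edgeR). The call at SMARTer FFPE 250 pg was lost when any library other than urothelium library 3 was left out.

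The other genes were less even across conditions. Cdkn1a was called higher in 4 of 11 (log2 fold changes from -0.78 to 0.82), Cdkn1b lower in 5 (-0.62 to 0.15) and Cdkn2b lower in 3 (-2.04 to 0.34). Of these calls, 2, 2 and 1 held under every alternative. With SMARTer on 2 ng of frozen RNA, Cdkn2b was lost without urothelium library 1 and Cdkn1b without urothelium library 2. On FFPE RNA with Ovation, Cdkn1b was lost at 2 ng without any 1 BC57 library or urothelium library 3, and at 250 pg without BC57 library 1 or 2 or urothelium library 3. The 2 ng call of Cdkn1b was lost under 5 of 11 alternatives in all. Ccnd2 was called in none (-0.31 to 0.44), and its libraries were apart only with poly(A). Cdkn2b at 50 pg of frozen RNA with Ovation had 4.12, 6.40 and 2.80 CPM in BC57 and 30.9, 17.7 and 5.07 CPM in urothelium, so the libraries overlapped. Its log2 fold change there was -2.04 ± 0.79 (adjusted p = 0.0486, edgeR), and the call was lost without any 1 of the BC57 libraries or of urothelium libraries 1 and 2. In all, 7 of 11 alternatives lost this Cdkn2b call. In the same Ovation frozen series, Cdkn1b in urothelium at 250 pg had 107, 98.0 and 32.5 CPM. The low library there, number 3, correlated with its group at 0.821 to 0.823, and without it Cdkn1b was called (-0.63, adjusted p = 0.00547, edgeR).

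**Figure D3:**
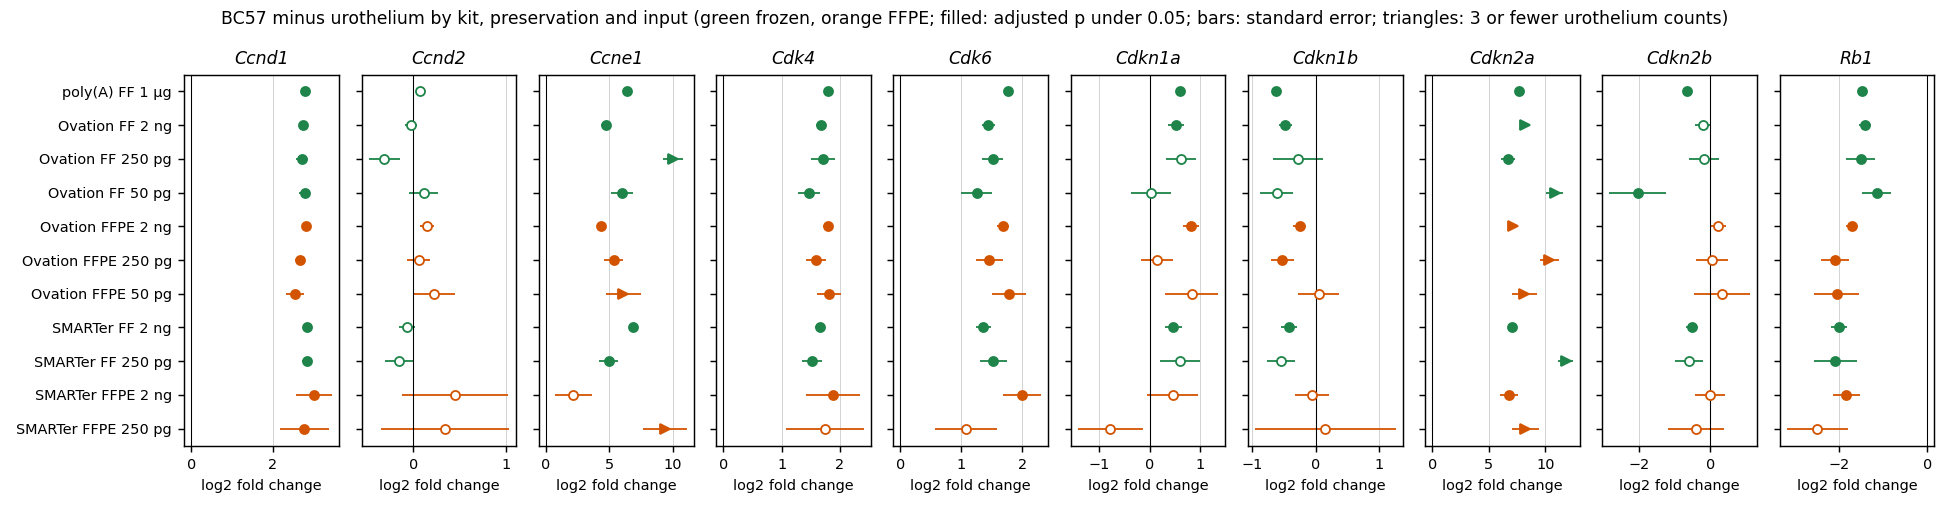
Log2 fold change, BC57 minus urothelium, of each gene by kit, preservation and input, with standard errors; green is frozen, orange is FFPE, filled symbols had an adjusted p under 0.05, and triangles mark 3 or fewer urothelium counts, where the size depends on the prior count of the fit. Ccnd1 stays between 2.55 and 3.01, whereas Cdkn1a, Cdkn1b, Cdkn2b and Ccnd2 lie on both sides of 0.

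The number of pathway genes called varied with the condition. Of the 15 E2F target and S-phase genes, Ovation gave 15, 13 and 13 higher in BC57 at 2 ng, 250 pg and 50 pg of frozen RNA (beside 79.1%, 48% and 45.2% of all genes called in either direction), and 15, 15 and 11 on FFPE RNA (77%, 52.2% and 33.5%). SMARTer gave 15 and 14 at 2 ng and 250 pg of frozen RNA (77.5% and 51.4%), and 12 and 6 on FFPE RNA (30% and 9.38%). None of the 15 was called lower in any of these conditions. Of the 26 G1/S and RB pathway genes, 18 were higher and 4 lower of 24 tested with Ovation on 2 ng of frozen RNA (beside 79.1%). With SMARTer 19 were higher and 3 lower of 26 tested (beside 77.5%).

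FFPE and frozen libraries differed in few of the genes. The kinase Cdk6 was called in 5 of the 10 comparisons, Cdkn1b and Cdkn2a in 2 each, and Cdkn1a, Ccnd2 and Ccne1 in 1 each. In BC57 with Ovation at 2 ng, Cdk6 had 138, 142 and 138 CPM in frozen and 219, 218 and 216 CPM in FFPE libraries, a log2 fold change of 0.66 ± 0.07 (adjusted p = 1.44e-08, edgeR). At 250 pg it had 128, 140 and 135 against 212, 222 and 164 CPM (0.59 ± 0.13, adjusted p = 0.00109), and at 50 pg 101, 135 and 145 against 207, 217 and 282 CPM (0.88 ± 0.20, adjusted p = 0.0125). With SMARTer at 2 ng it had 67.2, 77.0 and 89.0 CPM in frozen and 105, 133 and 98.4 CPM in FFPE BC57 libraries (0.68 ± 0.12, adjusted p = 0.00182). In each of these the FFPE libraries all lay above the frozen ones. In urothelium with Ovation at 2 ng, Cdk6 had 43.4, 53.7 and 53.1 CPM frozen and 59.9, 65.7 and 73.1 CPM in FFPE libraries (0.43 ± 0.13, adjusted p = 0.00696, edgeR). The sign was positive in all 10 comparisons of FFPE with frozen RNA (0.03 to 0.88). The libraries did not overlap in 6, with no share over all genes counted. The urothelium call was lost without frozen library 1 (adjusted p = 0.0664), and the BC57 call at 50 pg without frozen library 1 or 2 or FFPE library 3 (highest adjusted p = 0.105, edgeR).

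Cdk6 has the longest exon sequence of the 10 genes (13989 bases), so length was set beside this result. Over all genes tested, Spearman's rho between exon length and the FFPE minus frozen log2 fold change was 0.06 to 0.19 in the 10 comparisons. Over the tested members (n = 10 in BC57 and 8 in urothelium) it was 0.17 to 0.73. Genes of 1 library share its depth and fragment sizes, so rho is a description, and the part of length in the Cdk6 difference was not tested.

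By comparison, the numbers called were 3 of 10 in BC57 with Ovation at 2 ng (beside 32.3% of all genes), 2 of 10 at 250 pg (15.3%), 2 of 10 at 50 pg (3.96%) and 3 of 10 with SMARTer at 2 ng (17.8%). In urothelium, where Cdkn2a and Ccne1 had too few counts and 8 genes were tested, 2 were called with Ovation at 2 ng (37.3%). None was called in urothelium with Ovation at 250 pg (3.3%) or 50 pg (3.98%), in urothelium with SMARTer at 2 ng (1.87%) or 250 pg (0.0%), or in BC57 with SMARTer at 250 pg (2.2%). In those 5 comparisons edgeR gave 1 unadjusted p under 0.05 among the members, and DESeq2 called none. Without library 3, SMARTer at 2 ng in urothelium gave 2 calls, Cdkn1a (0.65) and Rb1 (0.46). In all, 12 of 90 tests were called, and 3 of the 12, all of Cdk6 in BC57, held under every alternative. These shares lie at or below the background at Ovation 2 ng and above it for BC57 at 50 pg.

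The other called genes moved less steadily with fixation. In BC57 with Ovation at 2 ng Cdkn1a went from 35.2, 39.1 and 34.9 to 49.5, 44.6 and 52.8 CPM (0.44 ± 0.13, adjusted p = 0.0102, edgeR), a call lost without frozen library 1 and with DESeq2. Cdkn1b rose there by 0.27 ± 0.10 (adjusted p = 0.032, edgeR) and at 250 pg by 0.50 ± 0.17 (adjusted p = 0.0447, edgeR). These calls were lost without any 1 frozen library or FFPE library 2 or 3 at 2 ng, and without library 1 or 3 of either group at 250 pg. Both were also lost without the low-count filter, and the 2 ng call with DESeq2. Ccnd2 fell by 0.18 ± 0.07 on the log2 scale in urothelium with Ovation at 2 ng (adjusted p = 0.0422, edgeR), a call that rested on FFPE library 2 and frozen libraries 2 and 3. That call was lost under 4 of 11 alternatives in all. With SMARTer at 2 ng in BC57, Ccne1 went from 42.8, 45.4 and 45.4 CPM to 27.4, 26.2 and 25.2 CPM (-0.62 ± 0.14, adjusted p = 0.00802) and Cdkn2a from 93.9, 87.5 and 101 CPM to 69.4, 65.6 and 56.1 CPM (-0.41 ± 0.11, adjusted p = 0.0213, edgeR). The Ccne1 call was lost without frozen library 2, and the Cdkn2a call without FFPE library 2 or any frozen library. Both calls were also lost with limma on the deposited log2 values. Cdkn2a also fell with Ovation at 50 pg in BC57 (-1.15 ± 0.31, adjusted p = 0.0435, edgeR), a call lost without FFPE library 2 or 3 or any frozen library, and with limma. In BC57 both genes had negative values in all 5 comparisons, -1.17 to -0.17 for Ccne1 and -1.15 to -0.25 for Cdkn2a.

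Whether fixation acted differently on the 2 samples was tested with an interaction term at 2 ng. None of the 10 genes was called with Ovation (beside 5.9% of all genes) or with SMARTer (0.0%). Of these 20 tests 1 had an unadjusted p under 0.05 in edgeR, Ccne1 with SMARTer, and DESeq2 called none. For these genes a difference between the samples in the response to fixation was not detectable with 3 libraries a group. Of the E2F target genes, 8 of 15 were lower and none higher in FFPE BC57 RNA with Ovation at 2 ng (median -0.33, beside 32.3% of all genes called in either direction), and 6 of 15 were lower with SMARTer (median -0.40, beside 17.8%). In urothelium 5 of 13 were lower and 1 higher with Ovation (median -0.48, beside 37.3%), and none of 14 was called with SMARTer (median 0.19, beside 1.87%).

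**Figure D4:**
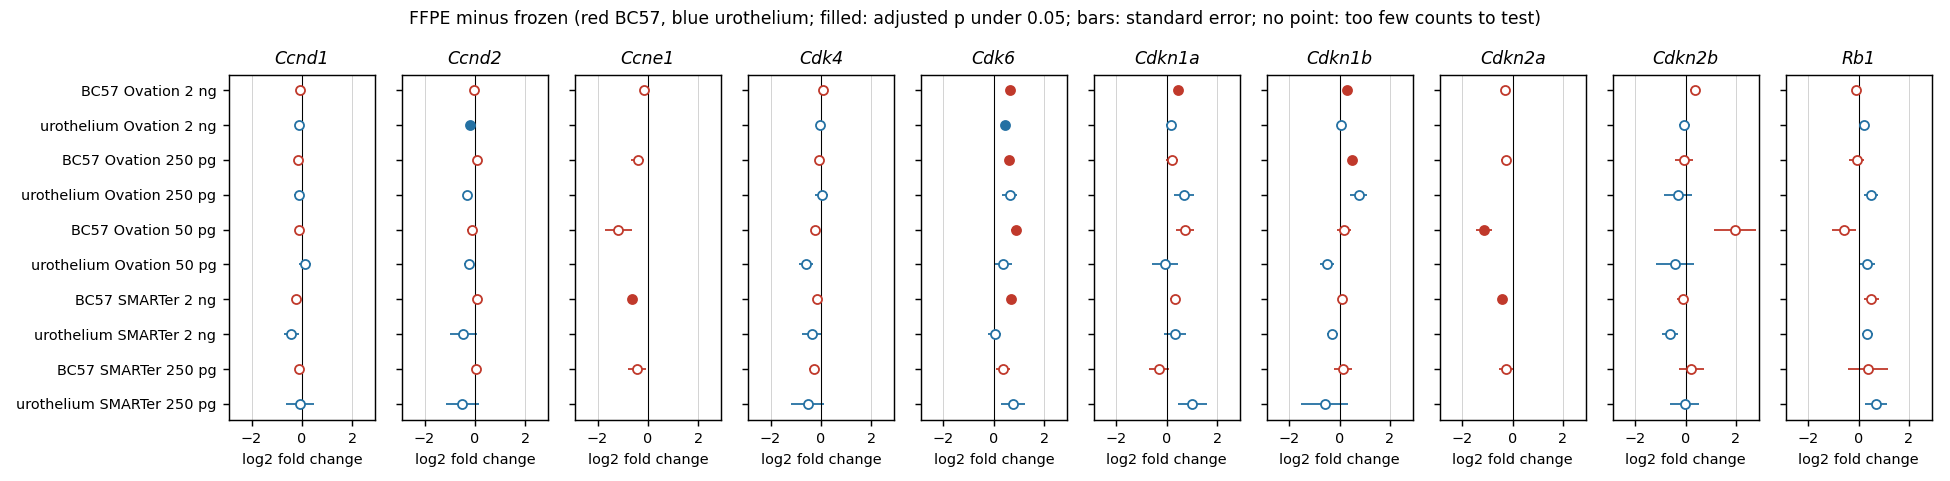
Log2 fold change, FFPE minus frozen, of each gene in BC57 and urothelium by kit and input, with standard errors and filled symbols for an adjusted p under 0.05. Cdk6 is positive in all 10 comparisons (0.03 to 0.88), and Ccne1 and Cdkn2a are negative in all 5 BC57 comparisons.

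Most of the genes differed between kits. Cdk6, Cdk4, Ccnd2, Ccnd1 and Cdkn1a were called against poly(A) with the same sign in both samples, whereas calls of Cdkn1b, Cdkn2b and Rb1 were in part made in 1 sample only, and Cdkn2a and Ccne1 were mostly untested in urothelium. Kits were compared on frozen RNA, Ovation and SMARTer at 2 ng with poly(A) at 1 µg, so that kit and input cannot be told apart there, and with each other at 2 ng. Ovation minus poly(A) called 8 of 10 genes in BC57 (beside 59.9% of all genes) and 7 of 8 in urothelium (56.7%). SMARTer minus poly(A) called 10 of 10 (57.5%) and 6 of 9 (57.7%), and SMARTer minus Ovation 7 of 10 (52.9%) and 6 of 8 (48.5%). Of these 44 calls, 42 held under every alternative; the exceptions were Ccnd2 in SMARTer minus poly(A), lost without SMARTer BC57 library 2, and Ccne1 in SMARTer minus Ovation, lost without Ovation BC57 library 1.

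Among the kinases, Cdk6 read higher in both total RNA kits. In BC57 it had 157 ± 2.51 CPM with Ovation and 53.8 ± 0.785 CPM with poly(A) (SD, n = 3), a log2 fold change of 1.54 ± 0.06 (adjusted p = 1.36e-17, edgeR), and in urothelium 56 ± 5.51 and 17.2 ± 1.58 CPM (1.71 ± 0.12, adjusted p = 4.08e-13). The SMARTer values exceeded poly(A) by 0.78 in BC57 and 1.06 in urothelium. Cdk4 moved the opposite way, by -0.39 and -0.41 with Ovation and by -0.99 and -0.96 with SMARTer in BC57 and urothelium. In BC57 Cdk4 had 195 ± 1.07 CPM with SMARTer and 386 ± 6.11 CPM with poly(A) (-0.99 ± 0.05, adjusted p = 8.65e-10, edgeR). The 2 kinases thus shifted in opposite directions between poly(A) and either total RNA kit.

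Rb1 separated the total RNA kits from each other. With Ovation it had 37.1 ± 2.43 CPM in BC57 against 14.5 ± 0.895 CPM with poly(A) (1.37 ± 0.12, adjusted p = 2.49e-10, edgeR), and in urothelium 95.7 ± 12.3 against 43.8 ± 3.40 CPM (1.14 ± 0.09, adjusted p = 2.28e-11). SMARTer gave -0.52 relative to poly(A) in BC57 and -0.12 in urothelium, the latter not called (adjusted p = 0.33, edgeR). SMARTer minus Ovation was -1.90 in BC57 and -1.27 in urothelium, the widest gaps between the 2 kits among the 10 genes.

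For the cyclins, Ccnd1 was lower than with poly(A) by 0.33 to 0.57 on the log2 scale in the 4 comparisons and did not pass the test between SMARTer and Ovation (-0.09 ± 0.06 in BC57 and -0.14 ± 0.10 in urothelium). Ccnd2 was higher than with poly(A), by 0.69 and 0.62 with Ovation and by 0.27 and 0.28 with SMARTer. In BC57 the Ccnd1 to Ccnd2 ratio per kilobase of 8.96 with poly(A) accordingly became 4.26 to 4.92 over the Ovation groups and 4.48 to 6.01 over the SMARTer groups. In urothelium, the ratio of 1.36 became 0.624 to 0.925 and 0.729 to 1.19. These ranges pool frozen and FFPE RNA at all inputs. On 2 ng of frozen RNA the ratio was 4.43 with Ovation and 5.68 with SMARTer in BC57, and 0.644 and 0.751 in urothelium. The higher SMARTer values in urothelium were those of the FFPE groups, with library 3 included (0.958 at 2 ng and 1.19 at 250 pg). Ccne1 in BC57 was higher with SMARTer than with poly(A) (0.33) or Ovation (0.40), and Ovation minus poly(A) was -0.09 ± 0.09 (adjusted p = 0.44, edgeR).

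Of the inhibitors, Cdkn1a was lower in both total RNA kits than with poly(A), by -1.12 and -1.20 with Ovation and by -1.42 and -1.40 with SMARTer in BC57 and urothelium. Cdkn2a in BC57 was lower by -1.12 with Ovation (73.8 ± 11.4 against 161 ± 5.30 CPM) and by -0.53 with SMARTer. Cdkn1b was higher with Ovation than with poly(A) in BC57 (0.38) and lower with SMARTer in both samples (-0.32 and -0.64). Cdkn2b was higher with SMARTer than with poly(A) in BC57 (0.45) and lower with Ovation in urothelium (-0.47). Exon length was also set beside these differences. For Ovation minus poly(A), Spearman's rho with length over all genes was 0.18 in BC57 and 0.24 in urothelium, and over the tested members 0.75 (n = 10) and 0.81 (n = 8). For SMARTer minus poly(A) it was 0.13 and 0.15 over all genes, and 0.26 (n = 10) and 0.40 (n = 9) over the members. For SMARTer minus Ovation it was -0.08 and -0.13 over all genes, and -0.77 (n = 10) and -0.48 (n = 8) over the members. The part of length was not tested.

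**Figure D5:**
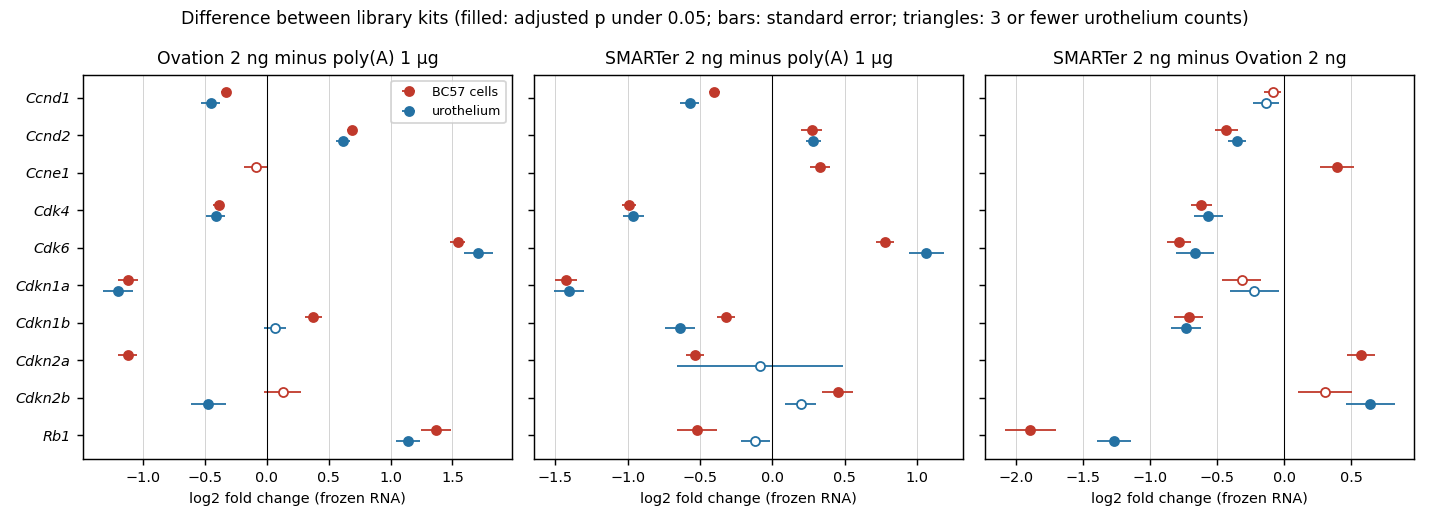
Log2 fold change between kits on frozen RNA for each gene in BC57 and urothelium, with standard errors and filled symbols for an adjusted p under 0.05; Cdkn2a and Ccne1 lack urothelium points where they had too few counts to test. Cdk6 and Ccnd2 are above 0 and Cdk4, Cdkn1a and Ccnd1 below 0 against poly(A) in both samples.

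The size of the BC57 to urothelium difference was compared between kits with an interaction term. Ovation against poly(A) called 2 of 10 genes (beside 8.32% of all genes): Cdkn2b, whose BC57 minus urothelium difference was more positive with Ovation by 0.69 ± 0.21 (adjusted p = 0.0292, edgeR), and Cdkn1b, by 0.39 ± 0.12 (adjusted p = 0.0373, edgeR). SMARTer against poly(A) called Ccnd1 (0.28 ± 0.08, adjusted p = 0.0247, edgeR), 1 of 10 beside 8.44%. All 3 calls were lost with another scaling and with DESeq2, and the median of all genes was itself 0.11 and 0.15.

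Input amount within a kit called none of the 10 genes in 8 comparisons of the lowest with the 2 ng input, 72 tests by edgeR and as many by DESeq2, beside at most 0.0266% of all genes in edgeR (0.0216% in FFPE urothelium with Ovation). An unadjusted p under 0.05 was reached in 2 of the 72 tests, both in frozen BC57 RNA with Ovation at 50 pg, for Cdkn2b (log2 fold change -1.63) and Cdkn2a (0.47). The spread between repeat libraries was described as well. Over the 8 genes other than Cdkn2a and Ccne1, the median coefficient of variation between repeat libraries was 1.63% in BC57 and 5.80% in urothelium with poly(A), 2.29% and 9.40% with Ovation on 2 ng of frozen RNA, and 13.2% and 22.8% at 50 pg. On FFPE RNA with Ovation it was 4.15% and 7.44% at 2 ng and 23.2% and 23% at 50 pg. With SMARTer on frozen RNA it was 6.22% in BC57 and 11% in urothelium at 2 ng, and 15.4% and 11.7% at 250 pg. In SMARTer FFPE libraries it was 17.6% and 63% at 2 ng and 25.3% and 56.3% at 250 pg, with urothelium library 3 included. It was thus higher at the lowest input in BC57 with either kit and in urothelium with Ovation, but about the same in urothelium with SMARTer.

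How the counts were assigned limits some of these genes. Exons of the opposite strand overlap Ccnd1 (818 bases, with LTO1), Cdk4 (641 bases, with Tspan31), Rb1 (383 bases with Rcbtb2 and 209 with Lpar6) and Ccnd2 (193 bases). Opposite-strand exons of genes that were not counted here also overlap Ccnd2 (372 bases, with Gm43126), Cdk6 (320 bases, with Gm17590) and Cdkn1a (261 bases, with AC167363.2). Whether counting used the strand is not given in the sources used here, so reads in those stretches may belong to either gene.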

How the data were processed

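The deposited files held raw read counts per Ensembl gene for 66 libraries, 1 table for each kit, and log2 values. Per the submitters' processing notes, reads were handled with STAR, SAMtools and featureCounts on the mm10 genome; no source used here gives versions, annotation or strand setting. The authors' deposited log2 values equalled log2 of 1 plus the count scaled by its library's upper quartile of nonzero counts, and were used for 1 alternative. Gene symbols came from GENCODE M21, which matched 37693 of the 39179 genes; the 1486 others held at most 2.47% of any library. No column of another series and no identical pair of libraries was found.

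Counts were tested with edgeR 4.0.16 (R 4.3.3): filterByExpr, TMM scaling and the quasi-likelihood test on the libraries of the groups compared, with Benjamini-Hochberg adjustment over all genes and calls under 0.05. SE is the log2 fold change over the square root of F. The tests were checked on simulated data with few changed genes and a small fixed spread. In some real comparisons most genes were called or the spread was wide, so the check does not cover the error rate there. CPM are scaled by TMM within a kit, or within the pair of groups for kit comparisons; lengths are unions of exons. The alternatives were RLE scaling, no filter, DESeq2 1.42.0, limma 3.58.1 on the log2 values, the replicate number as a block, each library left out, the SMARTer FFPE libraries numbered 3 left out, and the longest transcript. The 10 members are named throughout, and other genes from fixed lists of pathway, marker and neighbouring genes. The members and lists were chosen with earlier results of these data known. Library totals limit the precision of low counts; floors and intervals cover counting error only.

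Deviations from the group means correlated above 0.1 in every same-numbered pair of libraries only in 4 SMARTer FFPE comparisons. They were BC57 minus urothelium at 2 ng (0.24 to 0.35), FFPE minus frozen BC57 at 2 ng (0.16 to 0.28), and 250 pg minus 2 ng in BC57 (0.11 to 0.23) and urothelium (0.32 to 0.53). In BC57 minus urothelium, libraries 1 and 2 also correlated across numbers (0.21 and 0.23), and library 3 ran against both (-0.31 to -0.27). That pattern set library 3 apart and did not pair libraries by number in that comparison. In FFPE minus frozen BC57 at 2 ng, by contrast, libraries 1 and 2 correlated across numbers at only 0.01. There the correlations followed the library number, a pairing that the main test left out. In these 4 comparisons the replicate block added 1 call, Ccnd1 in FFPE minus frozen BC57 (-0.25, adjusted p = 0.0369, edgeR).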

Additional observations from a re-analysis of the deposited data

Results flagged for a closer look

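In 3 cases the difference between BC57 and urothelium was itself found to differ between a total RNA kit at 2 ng and poly(A) at 1 µg, by the interaction term of edgeR's quasi-likelihood test. For Cdkn2b the BC57 minus urothelium log2 fold change was more positive with Ovation by 0.69 (adjusted p = 0.0292), and for Cdkn1b by 0.39 (adjusted p = 0.0373, edgeR). For Ccnd1 it was more positive with SMARTer by 0.28 (adjusted p = 0.0247, edgeR). With RLE scaling the values were 0.56, 0.27 and 0.14 (adjusted p = 0.111, 0.245 and 0.320, edgeR), and with DESeq2 0.56, 0.27 and 0.14 (adjusted p = 0.0782, 0.222 and 0.0617). The cause of these differences was not tested. Each of the 3 calls was lost under 7 of 16 alternatives, the leaving out of single libraries included.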

How the results depend on the processing

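Of the calls, 61 of 74 for BC57 against urothelium, 42 of 44 between kits, 3 of 12 for fixation and none of 3 for the kit interaction held under every alternative. Leaving out 1 library at a time left 2328 single-gene results on their side of the threshold, lost 78 and gained 33. Urothelium counts of Cdkn2a and Ccne1 at or near 0 give bounds or wide intervals only at these depths.

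Without the SMARTer FFPE libraries numbered 3, the genes called in BC57 minus urothelium at 250 pg were 6, and in FFPE minus frozen urothelium at 2 ng 2. For fixation in BC57 with Ovation at 2 ng, DESeq2 called 1 gene and limma on the deposited log2 values 7. There Ccnd1 (0.20, adjusted p = 0.00788) and Ccnd2 (0.24, adjusted p = 0.00835) reversed sign under limma, whose all-gene median was 0.27 against -0.00 in edgeR. The count was 1 at 250 pg without the filter, and 1 with limma at 50 pg and with SMARTer at 2 ng. The preservation interaction with SMARTer gave 1 call without the filter. The kit interaction with Ovation gave 0 calls with RLE scaling or DESeq2 and 6 without the filter, and with SMARTer 0, 0 and 2. The cause of these changes was not tested.

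With 1 library left out, the counts ranged as follows. BC57 minus urothelium with SMARTer FFPE gave 3 to 6 at 2 ng and 0 to 5 at 250 pg. FFPE minus frozen gave 1 to 3 (BC57, Ovation 2 ng), 1 to 3 (urothelium, Ovation 2 ng), 1 to 2 (BC57, Ovation 250 pg), 0 to 2 (BC57, Ovation 50 pg), 1 to 3 (BC57, SMARTer 2 ng) and 0 to 2 (urothelium, SMARTer 2 ng). The kit interaction gave 0 to 6 with Ovation and 0 to 4 with SMARTer.

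Where same-numbered libraries did not all correlate above 0.1, the replicate block lost the calls of Cdkn2b at Ovation frozen 50 pg (-1.82, adjusted p = 0.123, edgeR) and of Ccne1 at SMARTer FFPE 250 pg (adjusted p = 0.0582, edgeR), and gained Ccnd2 at Ovation FFPE 2 ng (0.15, adjusted p = 0.0287, edgeR). It raised the SMARTer kit interaction from 1 call to 2, adding Cdkn1b (0.43, adjusted p = 0.0284).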

Other observations

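For each gene, the gene whose group means over the 22 groups followed it most closely was found among 12716 genes by Pearson's r of log2 values. The groups share 4 RNA samples and 3 kits, so r is a description. The nearest gene was Ska1, a kinetochore gene, for Ccne1 (r = 0.99), the tubulin gene Tuba1b for Cdk4 (0.99) and the nucleolar gene Nop56 for Cdkn2a (0.99). These names single out little, since many genes were close, with 951 above 0.9 for Ccne1, 713 for Cdk4, 1258 for Cdkn2a and 1371 for Ccnd1, whose nearest was Igfbp3. By contrast few were close to the genes that differed little between the samples: 18 for Ccnd2 (nearest Nckap1, 0.96), 31 for Cdkn1b (nearest Tmbim4, 0.95), 1 for Cdkn1a and none for Cdkn2b (nearest Aspscr1, 0.82). Cdk6 had 67 (nearest Qser1, 0.97) and Rb1 173 (nearest the receptor gene Bmpr1a, 0.97).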
